A study of Mus musculus with 16 samples.

Results

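The collagen gene family was defined by name, as every gene whose mouse symbol is Col, a number, the letter a and a number. Both expression tables held the same 44 such genes, of 55357 gene rows in the skin table and 56953 in the table of sorted cells. By the structure of their proteins the 44 genes were divided into 11 fibrillar collagens, 6 chains of basement membrane collagen IV, 6 chains of the beaded filament collagen VI, 9 fibril-associated (FACIT) collagens, 4 transmembrane collagens, 3 short-chain network collagens, the multiplexins Col15a1 and Col18a1, the anchoring fibril collagen Col7a1, and Col26a1 and Col28a1 as others.

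The libraries were bulk RNA sequencing of C57BL/6 mice with the genotypes control and GRK2 eKO, an abbreviation that the labels leave unexplained and that is written eKO here. Back skin of mice aged 8 months gave 5 control and 5 eKO libraries. Bulge cells of the hair follicle, sorted as CD34+ and α6-integrin+ and called hair follicle stem cells (HFSC), gave 3 control and 3 eKO libraries. The sample labels give the age of the HFSC mice as 18 months, and the series text gives 8 months, so this age is unsettled. The labels name no Cre driver, targeted cell type, sex or batch, and no group carries a further treatment. Nothing says that the libraries came from separate animals, so p-values measure the spread between these libraries.

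Collagens are triple helices of chains that are folded in the endoplasmic reticulum, secreted, trimmed, cross-linked and built into fibrils, sheets or filaments. In skin, fibroblasts of the dermis make most fibrillar collagen, whereas collagens IV, VII, XV and XVIII belong to the basement membrane zone between epithelium and dermis. Collagen XVII, encoded by Col17a1, spans the membrane of basal keratinocytes in the hemidesmosome, is shed by ADAM proteases, and is known for its role in keeping hair follicle stem cells.

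Depth ran from 8.21 M to 16.4 M recovered reads per library in skin (M, the SI prefix mega) and from 6.43 M to 9.39 M in HFSC. Values below are normalised read counts, as deposited, unless another scale is named. Grk2, the targeted gene, was 1298 ± 144 in control skin and 1110 ± 93.8 in eKO skin (SD, n = 5 each). This is a log2 fold change of -0.22, with a limma adjusted p of 0.343 and a 2-sided exact permutation p of 0.0397. In HFSC Grk2 was 135 ± 12.04 and 114 ± 8.68 (SD, n = 3 each). The log2 fold change was -0.24, with a limma adjusted p of 0.501. The exact permutation p there was 0.2, and 0.1 is the smallest that 3 against 3 allows. Y-linked Ddx3y was below 1 in control replicate 5 and eKO replicate 3 of skin. In HFSC it was 1176 to 1216 in controls and 359 to 434 in eKO libraries, so that sex-linked expression and genotype cannot be told apart in the sorted cells. The bulge markers Krt15, Sox9, Lhx2 and Cd34 were present in every HFSC library, and the skin libraries held markers of dermis, vessels, muscle, fat and growing hair.

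Promoter sequence is shown for the collagen genes on which the comparisons turn: the leading bulge collagens Col17a1 and Col8a2, the genes Col23a1, Col16a1 and Col27a1, whose genotypes did not overlap in HFSC, and the dermal fibril genes Col1a2 and Col3a1. The runs are the 250 bases before the annotated start, 5′ to 3′ on the strand of the gene, from RefSeq on GRCm38.p6, an older build than the GRCm39 of the submitters' processing notes. Capitals mark matches to the TATA box TATAAA, the CCAAT box CCAAT, the GC box GGGCGG or the AP-1 motif TGANTCA, on either strand.
Col17a1 (chr19:47692043-47692292, minus strand): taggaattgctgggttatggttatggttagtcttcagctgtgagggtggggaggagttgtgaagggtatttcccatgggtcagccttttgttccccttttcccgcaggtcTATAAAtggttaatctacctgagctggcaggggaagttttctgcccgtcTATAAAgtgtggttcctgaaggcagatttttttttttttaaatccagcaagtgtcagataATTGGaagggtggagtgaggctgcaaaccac
Col8a2 (chr4:126286544-126286793, plus strand): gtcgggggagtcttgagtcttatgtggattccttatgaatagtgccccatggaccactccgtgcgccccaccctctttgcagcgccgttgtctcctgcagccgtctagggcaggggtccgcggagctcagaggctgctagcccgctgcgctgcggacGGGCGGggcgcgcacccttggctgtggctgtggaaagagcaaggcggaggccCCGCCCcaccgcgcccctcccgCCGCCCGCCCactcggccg
Col23a1 (chr11:51289670-51289919, plus strand): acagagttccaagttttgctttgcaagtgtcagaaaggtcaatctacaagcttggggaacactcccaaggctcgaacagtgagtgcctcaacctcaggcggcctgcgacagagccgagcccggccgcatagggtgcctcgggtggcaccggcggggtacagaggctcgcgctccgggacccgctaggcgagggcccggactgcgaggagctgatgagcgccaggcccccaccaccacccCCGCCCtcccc
Col16a1 (chr4:130047590-130047839, plus strand): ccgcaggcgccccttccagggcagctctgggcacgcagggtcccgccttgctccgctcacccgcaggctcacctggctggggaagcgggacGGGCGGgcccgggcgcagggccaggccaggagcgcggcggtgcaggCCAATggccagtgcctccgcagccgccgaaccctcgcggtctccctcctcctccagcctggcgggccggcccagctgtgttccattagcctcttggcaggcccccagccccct
Col27a1 (chr4:63215162-63215411, plus strand): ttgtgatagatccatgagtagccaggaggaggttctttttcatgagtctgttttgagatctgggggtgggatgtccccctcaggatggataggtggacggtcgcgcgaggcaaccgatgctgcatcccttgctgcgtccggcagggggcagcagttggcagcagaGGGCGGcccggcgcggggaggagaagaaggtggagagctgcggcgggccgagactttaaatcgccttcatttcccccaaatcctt
Col1a2 (chr6:4505368-4505617, plus strand): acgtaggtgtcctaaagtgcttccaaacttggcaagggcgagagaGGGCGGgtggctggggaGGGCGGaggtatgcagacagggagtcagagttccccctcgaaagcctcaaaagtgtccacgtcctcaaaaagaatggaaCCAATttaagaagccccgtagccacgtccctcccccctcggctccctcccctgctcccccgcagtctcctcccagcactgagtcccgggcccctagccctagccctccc
Col3a1 (chr1:45311288-45311537, plus strand): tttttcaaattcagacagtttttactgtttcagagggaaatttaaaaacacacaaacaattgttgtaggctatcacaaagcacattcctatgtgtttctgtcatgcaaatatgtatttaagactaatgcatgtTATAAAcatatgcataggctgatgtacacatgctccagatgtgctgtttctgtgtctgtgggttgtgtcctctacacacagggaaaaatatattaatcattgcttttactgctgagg

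Col17a1 held 2 TATAAA matches and 1 CCAAT match and no GGGCGG in this window, and Col3a1 held 1 TATAAA match. Col8a2 held 4 GGGCGG matches, of which 2 share bases, and no TATAAA. Col23a1 and Col27a1 held 1 GGGCGG match each, Col16a1 held 1 GGGCGG and 1 CCAAT, and Col1a2 held 2 GGGCGG and 1 CCAAT. RefSeq entries matched 35 of the 44 members, with 38 windows because some genes have several starts. GGGCGG was in 22 of these 38 windows (57.9%) and in 32.7% of all 32851 promoter windows of the same length, and the median GC content was 59.0% in the collagen windows and 52.4% in all. TATAAA was in 5 of 38 (13.2%, against 12.4% of all), CCAAT in 13 of 38 (34.2%, against 33.8%) and TGANTCA in 1 of 38 (2.63%, against 6.75%). These are matches of letters and not measured binding sites.

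The collagen IV chain genes Col4a1 and Col4a2 lie head to head on chromosome 8, with annotated starts so close that the first 22 transcribed bases are shared on opposite strands. They are shown because reads of either gene that fall there cannot be told apart without strand, which is not given for the counting.
Shared start (chr8:11312805-11312826, plus strand, the strand of Col4a2): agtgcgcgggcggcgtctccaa

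In control skin the collagen genes took 0.515% to 3.27% of all reads, and in control HFSC 0.362% to 0.385%. Fibrillar genes gave 48.1% to 89.6% of collagen reads in control skin but 2.83% to 3.55% in control HFSC. Transmembrane genes gave 3.62% to 25.8% in control skin and 65.4% to 66.2% in control HFSC, nearly all of it Col17a1. Short-chain network genes, chiefly Col8a2, gave 10.3% to 13.3% of collagen reads in HFSC and at most 1.09% in control skin. Shares within a library do not depend on scaling, but the tissues differ in how the libraries were made, so no test was run between them. In bulk samples, fewer cells of a type and less RNA per cell cannot be told apart.

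**Figure D1:**
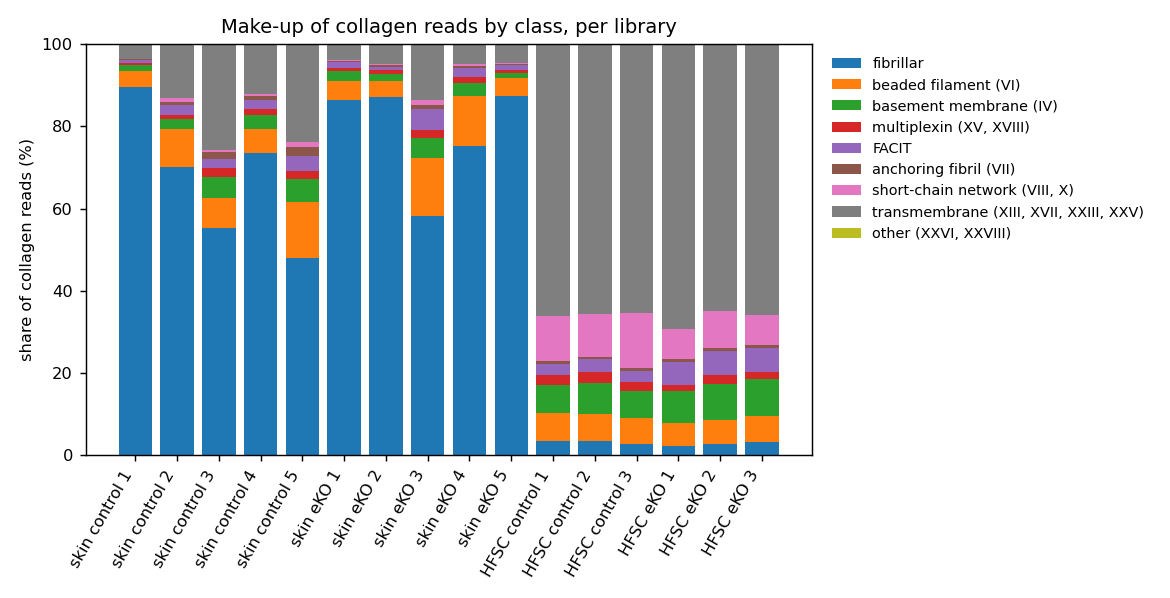
Stacked bars show the share of collagen reads (%) taken by each collagen class in each of the 16 libraries. Fibrillar collagens fill most of every skin bar but one, where they reach 48.1%, and transmembrane collagens fill 65.0% to 69.3% of every HFSC bar.

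Per length, as RPKM (reads per kilobase of exon per M reads), Col17a1 was the highest collagen of the bulge, with a control median of 414 (range 391 to 415, n = 3). That placed it at rank 46 of 52029 genes, and its range lay far above that of Col8a2. Col8a2, a chain of the hexagonal network collagen VIII, followed at 87.1 (77.7 to 106) and Col6a1, a chain of microfibrillar collagen VI, at 42.1 (40.5 to 46.6). The ranges of these leading genes do not meet. Col18a1, whose product carries the endostatin domain in basement membranes, came next at 12.7 (12.1 to 14.0). Below it Col5a2 and Col4a5 overlapped, at 10.3 (8.46 to 11.1) and 9.44 (9.25 to 10.5).

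In control skin, on the same per-length scale, the fibril genes Col1a1 at 263 (89.3 to 1560), Col1a2 at 166 (69.4 to 987) and Col3a1 at 143 (78.1 to 619) led together with Col17a1 at 187 (138 to 239, n = 5). These 4 ranges overlap, so their order is not resolved. Col6a1 at 45.2 (32.3 to 91.8) overlapped the ranges of the 3 fibril genes and lay below that of Col17a1. Col8a2, second in the bulge, had a skin median of 4.71 (2.14 to 9.08) and rank 9005 of all genes.

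In RPM (reads per M reads, without length), 7 of the 44 members were higher in every HFSC control than in every skin control: Col17a1, Col8a2, Col18a1, and the collagen IV chains Col4a3, Col4a4, Col4a5 and Col4a6. The ratio of medians was 18.5 for Col8a2, 3.10 for Col4a4, 2.59 for Col4a3, 2.21 for Col17a1, 2.14 for Col4a5, 1.62 for Col18a1 and 1.29 for Col4a6. Another 27 members were lower in every HFSC control, and 10 overlapped. On the deposited values, which were normalised separately in each tissue, Col8a2 and Col4a5 alone were higher in every HFSC control, 31 were lower and 11 overlapped.

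The tissues differed by chain within the collagen IV family. Collagen IV is built from the ubiquitous pair Col4a1 and Col4a2 or from the tissue-restricted chains Col4a3 to Col4a6. Col4a4, Col4a5 and Col4a6 were at 5.56, 9.44 and 8.42 RPKM in HFSC controls and 1.79, 4.42 and 6.53 in skin controls. Col4a2 was at 8.58 in HFSC and 21.2 in skin, and Col4a1 at 0.794 and 6.16. This division is in RPM and RPKM, and on the deposited values Col4a5 alone stayed higher in every HFSC control, Col4a3 and Col4a4 overlapped and Col4a6 was lower. Of the exon bases of these genes, 49.97% in Col4a3, 23.7% in Col4a1 and 16.6% in Col4a2 lie inside the span of other genes in the annotation used here.

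On the per-length scale, Col1a1 to Col1a2, Col5a1 to Col5a2 and Col6a3 to Col6a1 ratios were lower in control HFSC than in control skin. The Col6a1 to Col6a2 ratio ran the other way, at 6.33 to 7.47 in control HFSC and 1.72 to 2.11 in control skin. So did the ratio of the restricted chains Col4a5 to Col4a6, at 1.12 to 1.24 in control HFSC and 0.573 to 0.843 in control skin. Col1a1 and Col1a2, the chains of collagen I, stood at a per-length ratio of 1.29 to 1.58 in control skin. In control HFSC this ratio was 0.142 to 0.427, from 10.5 to 23.0 normalised reads of Col1a1 and 102 to 140 of Col1a2. In HFSC eKO libraries it was 0.297 to 2.45, a range that includes that of control skin. Those values rest on 14.4 to 33.0 normalised reads of Col1a1 and 25.6 to 91.7 of Col1a2. The Col5a1 to Col5a2 ratio was 1.12 to 1.94 in control skin and 0.0429 to 0.0622 in control HFSC. Col6a3, the long chain of collagen VI, stood at 0.338 to 0.502 of Col6a1 in control skin and at no more than 0.00241 in control HFSC. Col3a1, the collagen III gene of the dermis, had 0 or 1 read in each of the 6 HFSC libraries against 8528 to 72308 normalised reads in control skin.

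Most fibroblast and endothelial markers were low in the control sort, whereas the summed mural markers were not. Of 8 dermal fibroblast markers Lum, Dpt, Twist2 and Prrx1 had 0 reads in all 6 HFSC libraries. The summed fibroblast markers were 494 to 655 in HFSC controls, of which Fbln1 was the largest part, 696 to 738 in HFSC eKO libraries and 11756 to 34866 in skin controls. Of 9 endothelial markers, Vwf and Emcn were at 0 in every HFSC control. The summed markers of mural cells were 1790 to 2040 in HFSC controls and 5143 to 8266 in skin controls. Those of Schwann cells were 309 to 390 and 1859 to 2936.

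**Figure D2:**
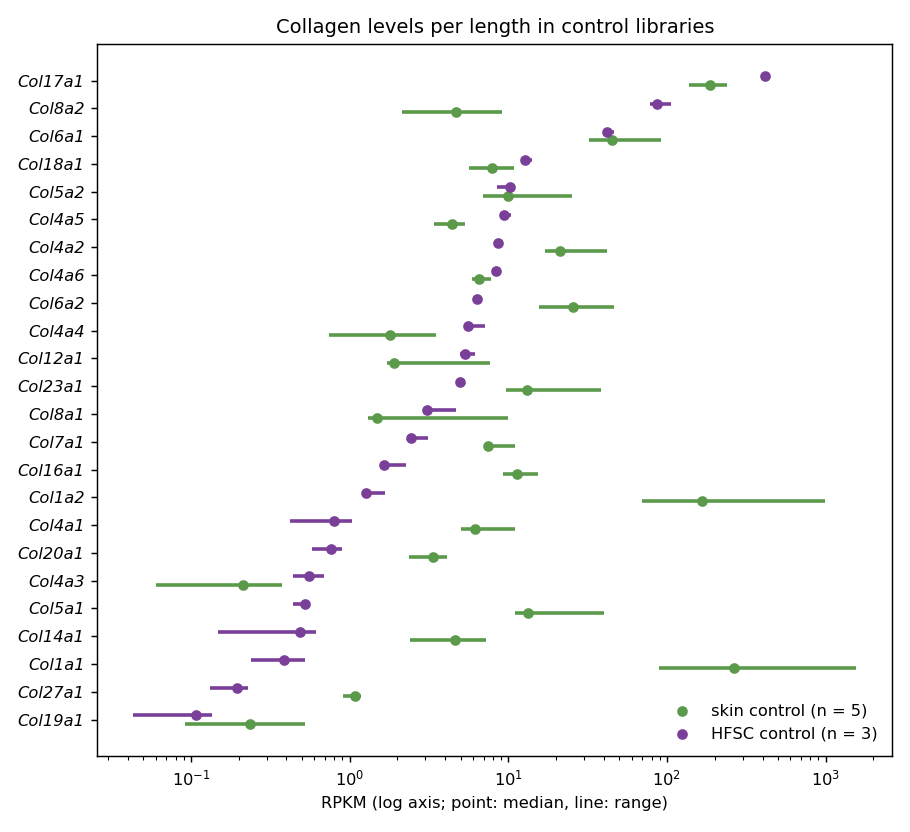
Points give the median and lines the range of RPKM (log axis) in skin controls (n = 5) and HFSC controls (n = 3), for collagens with an HFSC median above 0.1. Col17a1 and Col8a2 lie further right in HFSC, and Col1a1, Col1a2 and Col5a1 lie further right in skin.

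Between genotypes in HFSC, Col23a1, Col12a1 and Col16a1 rose in eKO libraries and Col8a2 and Col18a1 fell. Of the 23 members tested, 6 had an adjusted p under 0.05 (26.1%), beside 19.4% of all 13784 genes tested. The sixth, Col27a1, was tested only because its controls were above the filter on low values, and without it the count is 5 of 22 (22.7%). The 3 that rose are 13.6% of the 22, against 10.7% of all genes, and the 2 that fell are 9.09%, against 8.74%. These shares are near the background, so the count is no result about the family, and the genes are described one by one. All HFSC tests were limma on log2(value + 1), adjusted over all genes, and fold changes are on that scale.

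Col23a1 (ENSMUSG00000063564), like Col17a1 a transmembrane collagen with a shed ectodomain, was 181, 191 and 197 in the controls and 820, 443 and 600 in the eKO libraries. Every eKO library was more than any control. The log2 fold change was 1.66 ± 0.21 (SE), with an adjusted p of 1.23e-04. The gene is a minor transmembrane collagen beside Col17a1, which was 15835 to 16698 in the same controls.

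Col12a1 (ENSMUSG00000032332) and Col16a1 (ENSMUSG00000040690) encode FACIT collagens, which sit on the surface of fibrils. Col12a1 was 545, 631 and 510 in controls and 1077, 1093 and 1076 in eKO libraries, which agreed closely with each other. Its log2 fold change was 0.95 ± 0.12 (SE), adjusted p 1.62e-04. Col16a1 was 72.8, 74.7 and 103 in controls and 170, 152 and 191 in eKO libraries, with no overlap. Its log2 fold change was 1.04 ± 0.25 (SE), adjusted p 0.0114, and it missed the threshold without control replicate 1 or 2 (0.0522 in both cases). The FACIT share of collagen reads was 2.55% to 3.13% in controls and 5.50% to 5.80% in eKO libraries. The other tested FACIT genes, Col14a1 and Col20a1, had log2 fold changes of -0.22 ± 0.74 and 0.08 ± 0.46 (SE) and did not pass.

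Col8a2 (ENSMUSG00000056174), the second collagen of the bulge by level, was 2611, 2352 and 3188 in controls and 1648, 1946 and 1467 in eKO libraries. All eKO libraries lay below all controls, and the log2 fold change was -0.69 ± 0.13 (SE), adjusted p 0.00254. Its partner chain Col8a1 was 161, 161 and 246 in controls and 79.6, 65.8 and 197 in eKO libraries, which overlap (log2 fold change -0.87 ± 0.36, adjusted p 0.115). Short-chain network genes gave 10.3% to 13.3% of collagen reads in controls and 7.36% to 8.89% in eKO libraries.

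Col18a1 (ENSMUSG00000001435) was 657, 603 and 571 in controls and 328, 495 and 363 in eKO libraries, again without overlap. The log2 fold change was -0.64 ± 0.17 (SE), adjusted p 0.0162, and the call was lost without control replicate 1, control replicate 2 or eKO replicate 3 (adjusted p 0.0830, 0.0644 and 0.0538). In the annotation used here, 33.5% of the exon bases of Col18a1 lie inside the span of other genes. Col15a1, the other multiplexin and a gene of vessel basement membranes, had 0 reads in all 3 controls and values of 9.10, 4.38 and 15.98 in eKO libraries. This is at least 3.22-fold higher by mean value against a floor of 3 reads per library, and the gene, below the filter on low values, passed the threshold when no filter was set.

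Col27a1 (ENSMUSG00000045672), a fibrillar collagen known from cartilage, was 19.95, 11.57 and 16.997 in controls and 0, 0 and 1.07 in eKO libraries. It passed the filter on low values through the controls alone, so a difference was built into its being tested and its values are a description. The eKO libraries were at least 5.54-fold lower against the same floor. Its limma adjusted p, 0.0233, is not read as a test here, and it was above the threshold without any 1 of the 3 controls (0.0970 to 0.164) and with a pseudocount of 0.1 (0.0619). Of the other 22 tested members, 20 had a value of 10 or more in all 6 libraries.

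**Figure D3:**
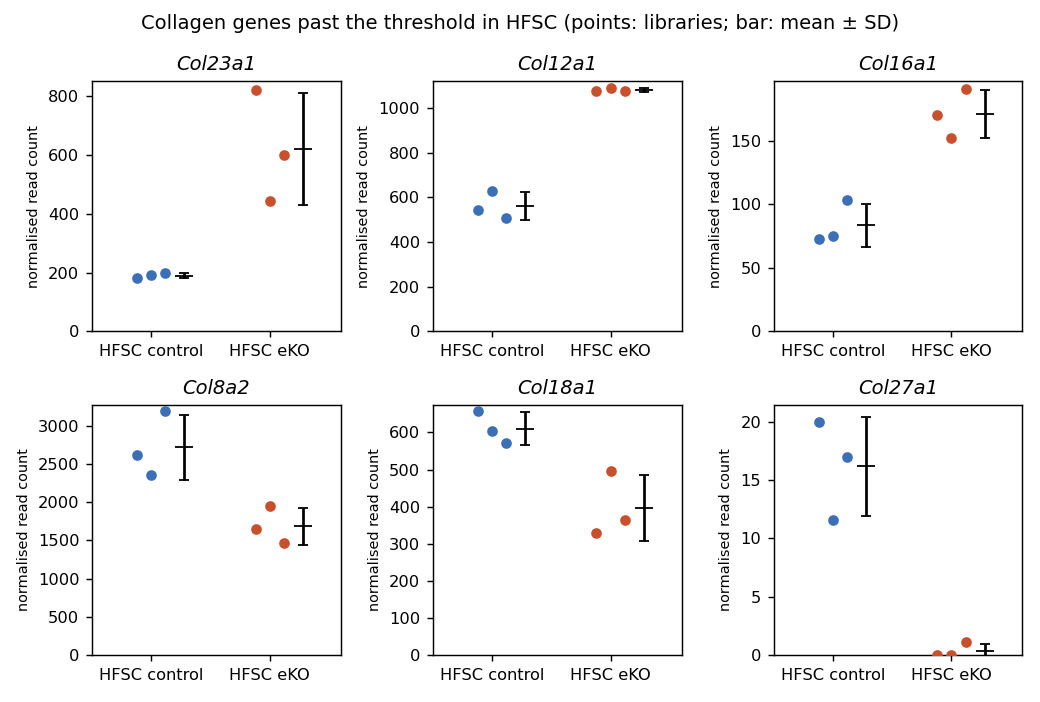
Points are the normalised read counts of single HFSC libraries (n = 3 per genotype), with mean ± SD beside them, for the 6 collagen genes with an adjusted p under 0.05, of which Col27a1 was tested through its controls alone; every axis starts at 0. Col23a1, Col12a1 and Col16a1 are higher and Col8a2, Col18a1 and Col27a1 lower in eKO, without overlap in any panel.

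Col17a1 (ENSMUSG00000025064), the hemidesmosome collagen, was 16654, 15835 and 16698 in HFSC controls and 15461, 14254 and 14104 in eKO libraries. The groups do not overlap, yet the difference is small, at -0.17 ± 0.07 (SE) on the log2 scale or -11.0% (95% interval -19.4% to -1.66%), and the adjusted p was 0.0964. When libraries were scaled by their total reads alone, the same contrast was -0.24 with an adjusted p of 0.0218, and without eKO replicate 1 it was -0.21 with 0.0132. Whether Col17a1 passes therefore depends on the scaling and on 1 library. With total-read scaling in limma, 9 members passed, 3 higher and 6 lower, beside 2799 of 13846 genes. Col17a1, Col1a2 and Col6a1 were added on the lower side, which also holds Col27a1, tested through its controls alone. Fold changes lay lower in general under this scaling, with an all-gene median of -0.097 on the log2 scale, where the deposited scaling gave -0.029. The part of this shift in the added calls was not tested.

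The partners that anchor collagen XVII were measured beside it. Itga6, the α6-integrin on which the cells were sorted, rose (log2 fold change 0.58 ± 0.09, adjusted p 5.10e-04), and the linker Plec rose (0.34 ± 0.08, adjusted p 0.00818). The integrin chain Itgb4 (-0.14 ± 0.11, adjusted p 0.382), the linker Dst (0.03 ± 0.07) and the tetraspanin Cd151 (0.18 ± 0.10) did not pass. Of the proteases that can shed collagen XVII, Adam10 (0.94 ± 0.12, adjusted p 1.38e-04) and Adam17 (0.55 ± 0.14, adjusted p 0.0145) rose and Adam9 fell (-0.47 ± 0.15, adjusted p 0.0433).

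None of the 6 collagen IV genes passed in HFSC, and their median log2 fold change was 0.14 with 4 of 6 above 0. Col4a1 was 51.86, 39.97 and 20.996 in controls and 40.2, 9.87 and 30.9 in eKO libraries, which overlap (-0.58 ± 0.58, adjusted p 0.525). Col4a2 was 376 to 406 in controls and 422 to 483 in eKO libraries (0.25 ± 0.14, adjusted p 0.245). Col4a4, a restricted chain, was 394, 510 and 385 in controls and 522, 499 and 620 in eKO libraries (0.35 ± 0.16, adjusted p 0.136). Col7a1, the anchoring fibril collagen, was 146 to 215 across all 6 libraries (-0.10 ± 0.21, adjusted p 0.792).

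Among the fibrillar genes none passed apart from Col27a1, described above. The class median over the 5 tested genes, Col27a1 among them, was -0.41, but -0.18 without eKO replicate 1 and -0.03 over 11 genes with no filter. Col1a2 was 105, 140 and 102 in controls and 91.7, 47.1 and 25.6 in eKO libraries, without overlap and just outside the threshold (-1.23 ± 0.41, adjusted p 0.0524). Col1a1, at 10.5 to 23.0 in controls and 14.4 to 33.0 in eKO libraries, overlapped (0.29 ± 0.59, adjusted p 0.771). Col5a2, the most abundant fibrillar gene of the sorted cells, was 711, 665 and 545 in controls and 351, 536 and 585 in eKO libraries (-0.41 ± 0.19, adjusted p 0.150). Col6a1 of collagen VI was 1363, 1197 and 1238 in controls and 1036, 947 and 1092 in eKO libraries, lower in each but not past the threshold (-0.30 ± 0.11, adjusted p 0.0684). Col26a1 had no read in HFSC outside eKO replicate 3, where it was 7.46.

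In all, 12 of the 23 tested members (52.2%) did not overlap between genotypes in HFSC, 5 higher and 7 lower, beside 36.3% of all genes. The 7 include Col27a1, which was tested through its controls alone, so its lack of overlap was built in. The median log2 fold change of the 23 members was -0.15, beside -0.03 over all genes. Another 21 members were not tested for low values, and none of them exceeded 17.5 in any HFSC library. Of these, 5 had 0 reads in all 6 HFSC libraries: Col10a1, Col9a1, Col22a1, Col28a1 and Col6a5. Every exon base of Col10a1 lies inside the gene Nt5dc1, and 89.0% of all protein-coding genes so placed had 0 reads in skin (91.4% in HFSC), so a 0 of Col10a1 says nothing about its expression.

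Marker levels of several lists moved with genotype in the sort. Of the 8 bulge markers Krt14 (1.29, adjusted p 1.62e-07), Krt5 (0.52, adjusted p 3.25e-04) and Itga6 rose and Lgr5 fell (-0.94, adjusted p 2.85e-06), while Krt15, Sox9, Lhx2 and Cd34 did not pass. The summed endothelial markers were 54.9 to 70.5 in controls and 1191 to 1357 in eKO libraries, with 8 of 8 tested genes higher. A marker below 10 in every control, such as Cdh5 at 0 to 8.98, was tested through its eKO libraries alone. For such markers a rise was built into being tested, so the count of 8 is a description. Of 3 tested fibroblast markers Thy1 rose and Fbln1 did not pass (-0.02, adjusted p 0.949), while the 4 markers named above stayed at 0. The third, Dcn, was at most 2.99 in controls and 19.7 to 28.8 in eKO libraries, and was likewise tested through its eKO libraries alone. Pdgfra, the other fibroblast marker, was 4.21 to 22.0 in controls and 0 to 1.10 in eKO libraries, at least 4.02-fold lower against the floor of 3 reads. Among mural markers Cspg4 fell (-0.33, adjusted p 0.0308). Kcnj8 was 0 to 8.00 in controls and 30.7 to 56.1 in eKO libraries, and was also tested through its eKO libraries alone. Its limma result (3.50, adjusted p 0.0116) is therefore not read as a test. The adipocyte marker Fabp4 rose (3.40, adjusted p 0.0179), with Adipoq and Cidec at 0 in all 6 libraries. Hair matrix markers rose in 8 of 10 tested genes, beside 10.7% of all genes, from a sum of 751 to 912 in controls to 2681 to 2876 in eKO libraries. A marker low in the controls can enter this test through its eKO libraries alone, so this count too is a description. The part of these cells in the collagen values was not tested.

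In whole skin no collagen gene passed between genotypes. Of 38 tested members 0 had a limma adjusted p under 0.05, beside 0.374% of all 16589 genes. At an unadjusted p under 0.05 there were 7 of 38 (18.4%), beside 14.2% of all genes. That count rested on single libraries, from 1 of 38 without control replicate 3 to 13 of 38 (34.2%, beside 16.1% of all genes) without control replicate 1. With edgeR 0 members passed, and with DESeq2 Col4a6 alone. The median log2 fold change was 0.25 over the 38 members, with 24 above 0, and 5.91e-05 over all genes.

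The dermal fibril genes varied widely between skin libraries of the same genotype. Col1a1, the main chain of collagen I, was 121728, 26041, 10518, 18730 and 6525 in the 5 controls and 73800, 74883, 10795, 28927 and 84677 in the 5 eKO libraries. The highest and the lowest value are both controls, so the groups overlap fully. The log2 fold change was 1.03 ± 0.80 (SE), adjusted p 0.608. Col1a2, at 9592 to 145875 in controls and 12688 to 95502 in eKO libraries, and Col3a1, at 8528 to 72308 and 13809 to 47105, were likewise highest in control replicate 1 and spread widely (0.84 ± 0.78 and 0.75 ± 0.56, adjusted p 0.674 and 0.588). The fibrillar median was 0.57 over 10 tested genes, with 8 above 0 and none past the threshold. Without control replicate 1 it was 0.88, with 6 of the 10 at an unadjusted limma p under 0.05 (16.1% of all genes), where all libraries gave 1. It was 0.41 with edgeR and TMM scaling, 0.41 with DESeq2 and 0.49 without control replicate 3, with 0 of the 10 in each. Col27a1, at 0 to 1.07 in HFSC eKO libraries, was 128 to 183 in control skin and 130 to 202 in eKO skin (0.11 ± 0.15, adjusted p 0.795).

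**Figure D4:**
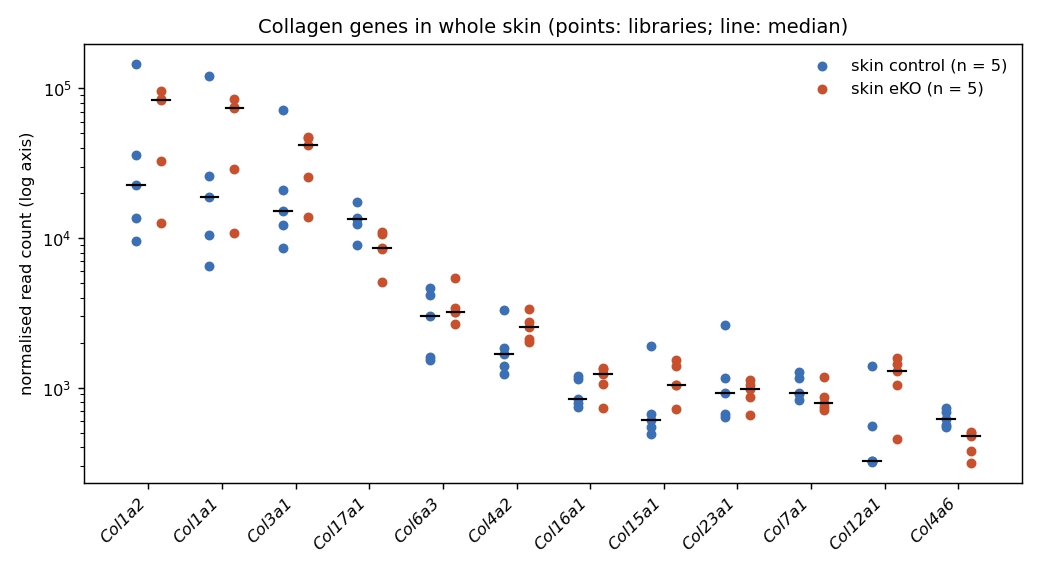
Points are normalised read counts (log axis) of single skin libraries for 12 collagen genes, with the median of each genotype (n = 5) as a line. Col1a1, Col1a2 and Col3a1 spread widely within both genotypes, and in Col4a6 every eKO point is below every control point.

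Col4a6, a restricted chain of collagen IV, was the member with the smallest p in skin. It was 619, 566, 732, 548 and 688 in controls and 501, 503, 378, 315 and 472 in eKO libraries. It was the only member of 38 whose genotypes did not overlap, beside 4.18% of all genes. Its log2 fold change was -0.55 ± 0.15 (SE), unadjusted p 0.00339 and limma adjusted p 0.141. The other collagen IV genes did not pass either. Their class median was 0.06, and -0.03 with edgeR and TMM scaling, so no direction is given for the class. Col4a2, the highest, was 1230 to 3303 in controls and 2016 to 3375 in eKO libraries (0.50 ± 0.25, adjusted p 0.399), and Col4a1 was 410 to 978 and 488 to 950 (0.25 ± 0.25, adjusted p 0.707).

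Col17a1 in skin was 13366, 13698, 17453, 9028 and 12391 in controls and 8584, 10682, 8493, 5065 and 10957 in eKO libraries. The genotypes overlap through control replicate 4, which was below 2 eKO libraries. The log2 fold change was -0.61 ± 0.23 (SE), or -34.5% (95% interval -54.2% to -6.23%), with an unadjusted p of 0.0249 and a limma adjusted p of 0.272. Col23a1, the other well-measured transmembrane collagen, was 635 to 2640 in controls and 653 to 1128 in eKO libraries (-0.17 ± 0.35, adjusted p 0.862), and its log2 fold change was 0.17 without control replicate 2. All 4 transmembrane genes had a log2 fold change below 0, with a median of -0.15, and none passed. This median was -7.70e-04 without control replicate 5 and -0.35 without eKO replicate 3, so no direction is given for the class.

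Among the associated collagens, Col12a1 in skin was 323, 1385, 320, 551 and 322 in controls and 1445, 456, 1570, 1041 and 1299 in eKO libraries. Control replicate 2 lay among the eKO libraries, and eKO replicate 2 among the controls (1.16 ± 0.45, unadjusted p 0.0274, adjusted p 0.279). Col16a1 was 742 to 1191 in controls and 735 to 1357 in eKO libraries (0.28 ± 0.20, adjusted p 0.576). Col15a1 was 492 to 1886 and 725 to 1518 (0.60 ± 0.35, adjusted p 0.472), Col18a1 was 439 to 925 and 490 to 741 (0.03 ± 0.19, adjusted p 0.967), and Col8a2 was 115 to 453 and 232 to 525 (0.47 ± 0.35, adjusted p 0.597).

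Of the collagen VI genes in skin, the long chain Col6a3 was 1526 to 4617 in controls and 2678 to 5429 in eKO libraries (0.37 ± 0.33, adjusted p 0.659). The class median over 5 tested genes was 0.60, with 4 above 0, but 0.34 with edgeR and TMM scaling, 0.35 with DESeq2 and 0.32 without control replicate 4. Col7a1 was 828.96 to 1269 and 713 to 1176 (-0.25 ± 0.16, adjusted p 0.536). Col28a1, a collagen of peripheral nerve, was 29.2 to 77.5 in controls and 42.2 to 113 in eKO libraries (0.86 ± 0.32, unadjusted p 0.0202, adjusted p 0.248). The remaining members with an unadjusted p under 0.05 were Col11a1 (2.18 ± 0.89), Col9a3 (0.92 ± 0.38) and Col20a1 (-0.45 ± 0.19). The 6 members not tested in skin stayed at or below 19.4, and Col10a1 and Col9a1 had no read in any of the 16 libraries.

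Fibril genes in skin were read beside a measure of hair growth. The mean log2 level of hair matrix markers, which are high in growing follicles, ran from 2.73 in control replicate 1 to 11.7 in control replicate 4. Fitted beside genotype in the 10 skin libraries with limma, no member passed an adjusted p under 0.05 for the slope on this mean, and 2.27% of all genes did. At an unadjusted p under 0.05, 12 of 38 members (31.6%) were lower where the hair markers were higher, beside 10.8% of all genes. Markers of other cells moved with the same mean. The adipocyte genes Cidec and Adipoq had slopes of -0.41 each (adjusted p 0.0153 and 0.0275), and the fibroblast genes Dcn and Dpt had -0.12 and -0.17 (adjusted p 0.0539 and 0.0753). Their part in the collagen slopes was not tested.

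The members closest to the threshold were the collagen V chains, which start fibril assembly. Col5a2 and Col5a1 each had a slope of -0.15 ± 0.04 (SE) on the log2 scale per unit of the marker mean, with adjusted p of 0.0553 and 0.0556. Col1a1 and Col1a2 had slopes of -0.33 ± 0.09 each and Col3a1 of -0.23 ± 0.06 (adjusted p 0.0923, 0.0799 and 0.0799). The slope of Col17a1 was -0.06 ± 0.04 (adjusted p 0.382). Control replicate 1, with the lowest marker mean, had the highest Col1a1, Col1a2 and Col3a1. With the marker mean as a covariate, 0 members passed between genotypes, as before.

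The genotype effects of both tissues were compared by an interaction contrast in 1 limma fit over the 16 libraries. Of 23 members 2 (8.70%) had an adjusted p under 0.05, beside 5.62% of all 13227 genes tested in both tables, and without Col27a1 it was 1 of 22 (4.55%). The Col23a1 effect was higher in HFSC than in skin, by 1.83 ± 0.49 (SE) on the log2 scale and an adjusted p of 0.0385. The call was lost without skin control replicate 3 or 5, skin eKO replicate 1, 2 or 4, any 1 HFSC control, or HFSC eKO replicate 1 or 3, with adjusted p up to 0.0940. Over all 21 alternatives the difference was between 1.49 and 2.08. For Col27a1 the fitted difference was -3.83, which is no test, since the gene was tested in HFSC through its controls alone, and its size depends on the added constant because the eKO HFSC libraries held at most 1 read. Col12a1 had similar effects, 0.95 in HFSC and 1.16 in skin, with a difference of -0.21 ± 0.61 (adjusted p 0.887), an error too wide to show that they are alike. For Col17a1 the difference was 0.44 ± 0.32 (adjusted p 0.458), and for Col8a2 -1.15 ± 0.48 (adjusted p 0.177).

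**Figure D5:**
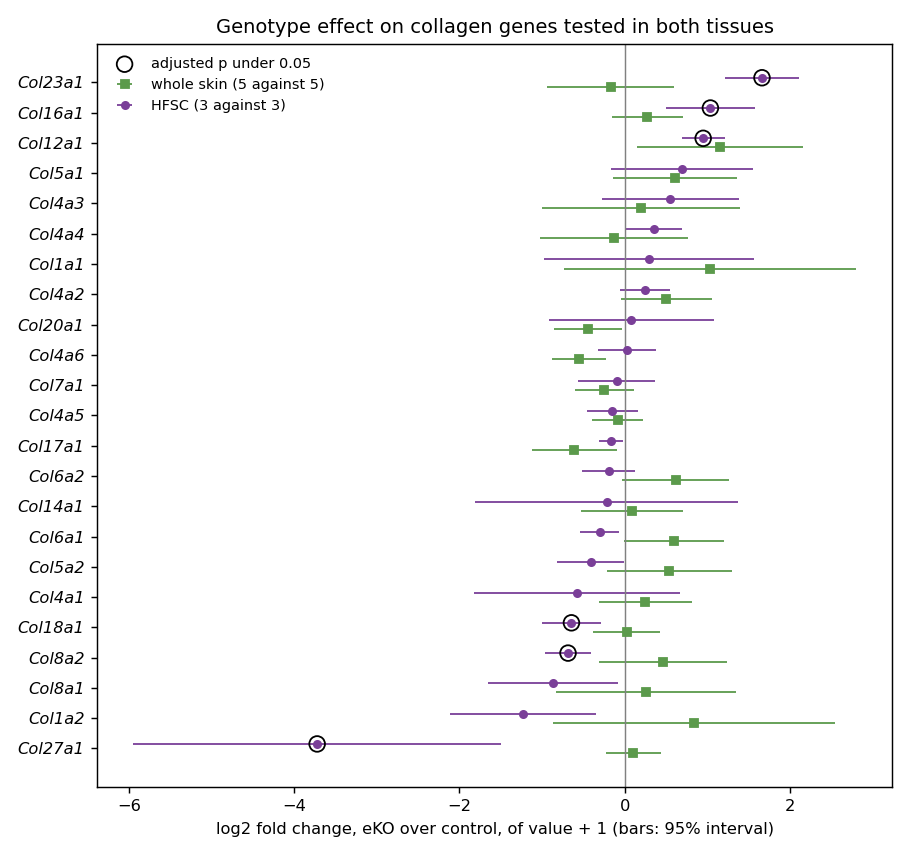
Points are log2 fold changes of eKO over control, on the value + 1 scale, with 95% intervals, for the 23 collagen genes tested in both tissues; circles mark an adjusted p under 0.05. The 6 circled points are all in HFSC, and the skin intervals of Col1a1 and Col1a2 are the widest of the skin series.

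The genes that fold, trim, cross-link and bind collagen were followed through a list of 79. In skin 75 of them were tested and 1 passed (1.33%, beside 0.374% of all genes), the fibril-binding proteoglycan Bgn, at 1360 to 2928 in controls and 3868 to 5630 in eKO libraries (1.12, adjusted p 0.0420). In HFSC 60 were tested, of which 16 rose (26.7%, beside 10.7% of all genes) and 7 fell (11.7%, beside 8.74%). Both counts include genes that passed the filter on low values through 1 genotype alone, Dcn among those that rose and Pcolce2 among those that fell. The shares are therefore a description and no result about the pathway. Bgn, which passed in skin, rose there too (0.80 ± 0.10, adjusted p 1.41e-04).

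Single genes of the list in HFSC are described here. Serpinh1, the collagen chaperone HSP47, rose from 5191 ± 131 to 8475 ± 593 (SD, n = 3 each; 0.71 ± 0.08, limma adjusted p 4.21e-05). P4ha1, a prolyl hydroxylase subunit, did not pass (0.03 ± 0.19, adjusted p 0.930), while its partner P4hb rose (0.37 ± 0.10, adjusted p 0.0239). Among matrix proteins that organise fibrils Thbs2 (1.10 ± 0.11, adjusted p 2.62e-05) and Sparc (0.55 ± 0.10, adjusted p 0.00250) rose and Tnxb fell (-2.16 ± 0.36, adjusted p 0.00117).

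The enhancer of propeptide removal Pcolce2 was at 104 ± 30.6 in controls and 4.01 ± 1.62 in eKO libraries (SD, n = 3 each). It passed the filter on low values through the controls alone, so a fall was built into its being tested. Its values are a description, and its limma result (-4.40 ± 0.53, adjusted p 1.03e-04) is not read as a test here. The gelatinase Mmp2 fell from 491 ± 3.13 to 150 ± 39.8 (SD, n = 3 each; -1.74 ± 0.20, limma adjusted p 6.22e-05), as did the inhibitor Timp2 (-0.49 ± 0.09, adjusted p 0.00231). Of the collagen receptors, Itga2 fell (-1.10 ± 0.21, adjusted p 0.00292) and Itga1 rose (1.06 ± 0.33, adjusted p 0.0397). Lox, the lysyl oxidase, had 0 reads in the HFSC controls and stayed below the filter on low values there.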

How the data were processed

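RNA was sequenced in bulk from 10 back skin and 6 HFSC libraries, each group being named by the genotype and cell labels. The authors deposited 1 table of values per tissue, with the unit signal: gene read counts divided by 1 size factor per library. Per the submitters' processing notes, reads were counted with featureCounts on GRCm39, with DESeq2 named for skin. The aligner, annotation and use of strand are not given in the sources used here. All 16 columns were used. Whole reads were recovered for 100% of values at a tolerance of 0.01.

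Symbols and exon lengths came from GENCODE M21, and 94.1% of skin rows and 91.4% of HFSC rows had a symbol. A gene was tested if its value reached 10 in 5 or more skin libraries, or in 3 or more of HFSC, using limma 3.58.1 (trended prior) on log2(value + 1), with Benjamini-Hochberg adjustment over all genes and a threshold of 0.05. The pseudocount of 1 understates changes of low genes. Levels across tissues are RPM of recovered reads over 55305 shared rows. Alternatives were edgeR 4.0.16 and DESeq2 1.42.0 on the recovered reads, pseudocounts of 0.1 and 5, no filter, total-read scaling, each library left out, a replicate block, the hair matrix mean as a covariate, and skin without both libraries low in Y-linked reads. The fits were run on simulated data that gave every gene the same relative spread between libraries. That run does not cover spreads as wide as that of Col1a1 in skin. The floor of 3 reads covers counting error only, and fold-change intervals are those of limma, from the spread between libraries.

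Members, classes and lists were chosen with earlier results of these data known. Genes named were those past the threshold in any test, Col1a1, Col3a1, Col4a1, Col7a1 and Col17a1, the highest member of each class by mean value, the 10 pathway genes of smallest p, and Serpinh1, P4ha1, Lox, Itga6 and Itgb4. Other genes with values in the text were named after their values were seen.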

Additional observations from a re-analysis of the deposited data

Results flagged for a closer look

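In skin, a single library stood apart from the other 4 of its group, by Dixon's test, in 8 of 32 groups looked at. The test was on normalised read counts without logs, and the groups share the same libraries. The count is therefore not set against a rate from chance. Control replicate 1 was highest for the dermal collagens Col1a1 (121728, others up to 26041), Col1a2 (145875, others up to 35907), Col3a1 (72308, others up to 21097) and for the multiplexin Col15a1 (1886, others up to 667). The same library had the lowest hair matrix mean. Control replicate 2 was highest for Col12a1 (1385, others up to 551) and Col23a1 (2640, others up to 1152). Control replicate 4 was highest for Col28a1 (77.5, others up to 39.7). Among eKO libraries, replicate 4 was highest for Col6a3 (5429, others up to 3416).

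The genotype effect differed between HFSC and skin for Col23a1, by 1.83 on the log2 scale (limma interaction, adjusted p 0.0385), with 1 of 22 members past the threshold. For Col27a1 the fitted difference was -3.83, but this gene was tested in HFSC through its controls alone and its eKO libraries there held at most 1 read, so the value is a description.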

How the results depend on the processing

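No skin member passed under any alternative except DESeq2, where 1 did (Col4a6, with 656 genes called in all against 62 in limma). Leaving out a skin library gave 0 members each time. Without both Y-low libraries no gene passed in limma (1790 at an unadjusted p under 0.05). In HFSC the count was 3 to 8 when 1 library was left out, with 3 without control replicate 1 or 2. There 1519 of 14301 and 1541 of 14317 genes passed in all, against 2673 of 13784 with every library. The member count was 5 to 9 under the other alternatives, and Col23a1, Col12a1 and Col8a2 passed in all 14. These counts include Col27a1 wherever it passed. The interaction count was 1 to 3 with 1 library left out, Col27a1 among them each time, and the slope count on hair markers 0 to 1. On deposited values 2 members were higher in every HFSC control, against 7 in RPM. Nothing says that the replicate numbers of HFSC pair the libraries. Deviations of libraries with the same number had correlations of -0.06, -0.02 and -0.03, which so few libraries cannot turn into a verdict on pairing. With a replicate block 8 HFSC members passed, beside 2696 of 13784 genes, with Col1a2 and Col8a1 added. With the block 1 member passed the interaction, where the adjusted p of Col23a1 was 0.0548. Near 0, signs turned: Col18a1 in skin was -0.0022 with edgeR, -2.20e-04 with DESeq2, -0.15 without the Y-low libraries and -0.11 to 0.16 with 1 library left out. With 1 library left out, Col23a1 in skin ran from -0.34 to 0.17, Col1a1 in HFSC from -0.0573 to 0.54 and Col7a1 in HFSC from -0.18 to 0.0359. The causes were not tested. Of 729 values of single genes under alternatives, 694 kept direction and side of the threshold. Genes under 10 normalised reads were not tested.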
